A study of Mus musculus with 3 samples.

Results

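The 10 genes described here are interferon-stimulated antiviral effectors and sensors: Ifih1, Ddx58, Ifit1, Ifit2, Ifit3, Mx1, Mx2, Rsad2, Isg15 and Usp18. All regions that the deposited table of H3K27ac regions assigns to at least 1 of these genes were taken, which gave 24 of 22399 regions. All 10 genes, of 13443 genes with a region, were found. H3K27ac is acetylation of lysine 27 of histone H3, a mark of active promoters and enhancers, and it was measured by chromatin immunoprecipitation with sequencing in mouse myeloid-derived suppressor cells (MDSC). These are immature monocytic and neutrophilic cells of tumours, sorted here for CD45, CD11b and Ly6C, with or without Ly6G and without F4/80. The hosts were female SCID.beige mice, which lack mature T and B cells, aged 6 to 8 weeks and bearing subcutaneous tumours. The titles mark the tumours as tnbc (triple-negative breast cancer), and the growth protocol names the human breast cancer derivative MDA.MB.231-X1.1 beside the mouse colon carcinoma line CT26. The vehicle group received MCT by oral gavage. The inhibitor group received GNE-781, an inhibitor of the bromodomain of the acetyltransferases CBP and EP300, at 25 mg/kg, 2 doses per day for 7 days. There was 1 library per treatment, plus a pooled input that was not used here, and the number of mice behind a library is not given in the sources used here.

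Cells sense viral RNA in the cytosol through the helicases RIG-I (Ddx58) and MDA5 (Ifih1), and this leads to secretion of type I interferon. Interferon then acts through its receptor to activate transcription factors, IRF9 among them, that bind the interferon-stimulated response element in the promoters of antiviral genes. The sensors are themselves interferon-stimulated, so the pathway feeds on itself. USP18 limits the response by acting at the receptor. In myeloid cells of tumours such genes serve as a readout of interferon signalling.

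The promoters of these genes are shown because H3K27ac regions covered them. RefSeq windows from 250 bases before to 50 after a gene start (GRCm38.p6) were given for 7 of the 10 genes, and the windows of all 7 lay inside a region over their whole 300 bases. For Mx1, Mx2 and Usp18 no window was used. The core shared by IRF binding sites and the interferon-stimulated response element was searched on both strands as GAAA, 2 bases of any kind and GAAA again, or TTTC, 2 bases and TTTC on the other strand. Of 32851 promoter windows of mouse genes, 1131 (3.44%) held them, and of the 7 member genes 6 did. The windows follow 5′ to 3′ on the strand of the gene, with the matches in capitals and the gene start at base 251.
Ifih1, chr2:62646206-62646505, minus strand: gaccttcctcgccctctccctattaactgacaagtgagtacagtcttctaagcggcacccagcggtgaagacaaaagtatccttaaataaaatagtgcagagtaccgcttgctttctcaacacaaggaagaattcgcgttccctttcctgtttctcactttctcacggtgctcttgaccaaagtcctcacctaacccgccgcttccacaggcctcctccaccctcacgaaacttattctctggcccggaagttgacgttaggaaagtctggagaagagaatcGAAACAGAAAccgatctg
Ddx58, chr4:40239776-40240075, minus strand: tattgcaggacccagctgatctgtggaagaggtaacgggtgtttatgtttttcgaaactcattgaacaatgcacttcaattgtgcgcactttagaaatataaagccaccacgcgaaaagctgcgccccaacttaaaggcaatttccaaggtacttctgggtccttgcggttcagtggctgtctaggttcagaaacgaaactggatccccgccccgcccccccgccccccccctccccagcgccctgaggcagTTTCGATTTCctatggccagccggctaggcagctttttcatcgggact
Ifit1, chr19:34640639-34640938, plus strand: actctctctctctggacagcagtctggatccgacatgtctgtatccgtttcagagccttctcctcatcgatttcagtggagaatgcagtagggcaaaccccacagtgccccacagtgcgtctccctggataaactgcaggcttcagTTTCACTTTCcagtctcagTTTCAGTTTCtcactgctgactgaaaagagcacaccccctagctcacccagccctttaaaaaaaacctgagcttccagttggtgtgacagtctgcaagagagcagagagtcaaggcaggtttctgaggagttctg
Ifit3, chr19:34583279-34583578, plus strand: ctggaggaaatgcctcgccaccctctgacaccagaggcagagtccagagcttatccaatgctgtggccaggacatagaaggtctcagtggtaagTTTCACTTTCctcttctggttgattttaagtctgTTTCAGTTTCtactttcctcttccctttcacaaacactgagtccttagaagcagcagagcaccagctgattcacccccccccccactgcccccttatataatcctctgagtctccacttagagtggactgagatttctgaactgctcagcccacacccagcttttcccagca
Rsad2, chr12:26456403-26456702, minus strand: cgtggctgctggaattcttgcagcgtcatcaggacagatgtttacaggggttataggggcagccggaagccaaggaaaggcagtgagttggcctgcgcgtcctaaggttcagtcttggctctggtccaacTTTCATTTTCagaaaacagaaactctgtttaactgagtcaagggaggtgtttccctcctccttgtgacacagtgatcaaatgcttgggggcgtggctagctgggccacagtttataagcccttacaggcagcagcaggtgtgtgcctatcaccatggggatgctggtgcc
Isg15, chr4:156200769-156201068, minus strand: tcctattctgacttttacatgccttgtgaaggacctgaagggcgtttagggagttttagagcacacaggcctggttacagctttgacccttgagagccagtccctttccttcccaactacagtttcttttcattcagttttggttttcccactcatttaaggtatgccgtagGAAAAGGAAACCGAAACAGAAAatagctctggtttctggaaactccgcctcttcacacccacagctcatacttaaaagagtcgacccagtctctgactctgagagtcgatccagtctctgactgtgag

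Isg15 held 3 matches, each overlapping the next, starting at bases 173, 179 and 185. Only 5 of the 32851 windows held at least 3 matches. The Ifit1 window held 2 matches, at bases 147 and 166, and Ifit3 held 2, at bases 95 and 129, whereas 74 windows of all genes (0.225%) held at least 2. Rsad2 had a single match at base 131. In the 2 sensor genes the single match lay downstream of the start, at base 283 in Ifih1 and at base 253 in Ddx58. Ifit2 has 2 RefSeq starts, and neither window held the letters. Its first window held the letters TTCNNNGAA, a STAT-type motif that reads the same on both strands and is found in 8.30% of all windows. This motif did not occur in the windows of the other 6 genes. A match is a sequence description and shows no binding.

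**Figure D1:**
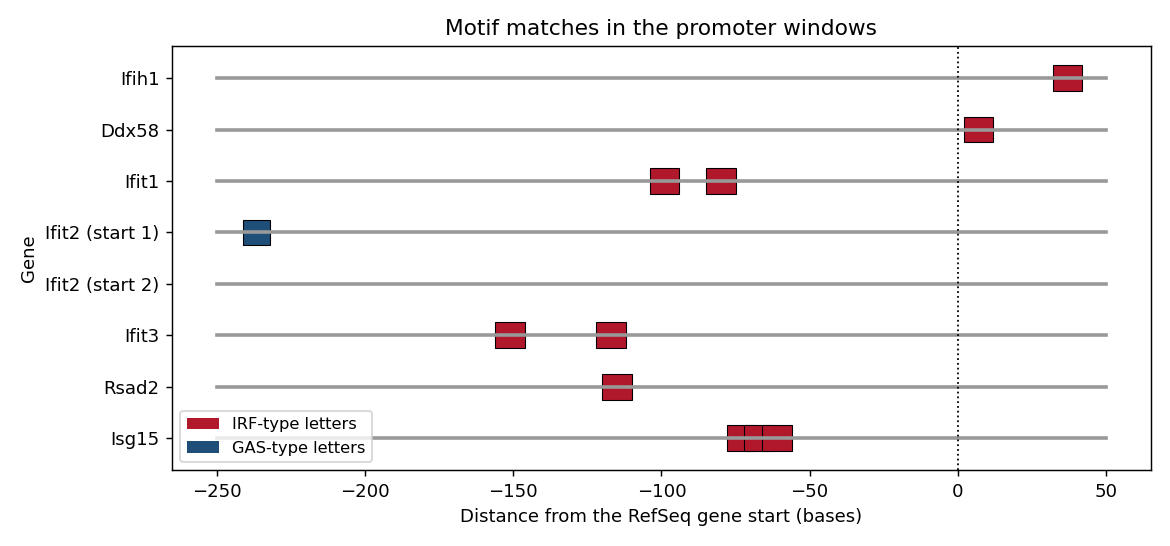
Position of motif matches in the promoter windows of 7 genes. The horizontal axis is the distance from the RefSeq gene start in bases, each row is a window, red boxes are the IRF-type letters and the blue box the STAT-type (GAS) letters. The matches of Ifit1, Ifit3, Rsad2 and Isg15 lie upstream of the start and those of Ifih1 and Ddx58 downstream.

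The signal of a region is the deposited average over the region, taken here to be fragment pileup, and peak signal is the deposited peak value. The difference is log2(inhibitor signal + 1) minus log2(vehicle signal + 1), so that a negative value is a lower signal with inhibitor. Each treatment is a single library, so the values have no error from replicates and no test was run. Counts of regions 2-fold and 4-fold lower stand for differences of -1 and -2 on this scale. A fold value printed for a single region is the plain ratio of its signals without the added 1, which is larger. Over all 22399 regions the median signal was 14.5 with vehicle and 4.67 with inhibitor, the median difference was -1.61, and 99.7% of regions were lower with inhibitor. A difference near -1.61 is therefore that of the typical region of these libraries. Whether the pileup was scaled by the fly chromatin added as a spike-in is not stated in the sources used here, and the overall size of the decrease depends on it. Of the 5 genes of the sort gate, 4 had a region (Ly6c1 was without one). All 5 neutrophil markers, 3 of 4 monocyte markers and 5 of 7 macrophage and dendritic cell markers were covered. So were 2 of 6 lymphoid, 1 of 5 stromal or endothelial and 1 of 3 epithelial markers. A gene counts as covered by a region at any distance (69437 bp at Itgam), and the share of all genes covered is not given here. Emr1, which encodes F4/80, had signals of 12.8 with vehicle and 3.70 with inhibitor although the gate left out F4/80-positive cells. The differences ranged from -2.06 to -1.42 at the gate genes, from -2.08 to -1.004 at the neutrophil markers and from -2.76 to -1.87 at the monocyte markers, and from -1.56 to -1.37 at the macrophage and dendritic cell markers, where C1qa, C1qb and C1qc take 1 shared region. Of the lymphoid markers, Cd3g, whose region lies 14973 bp away from its start, had 26.6 in the vehicle library against 4.59 (-2.30) and Cd79a had -1.79. The endothelial marker Pecam1 had -1.92 and the epithelial marker Krt8 -1.70, at regions 41007 and 8405 bp from their starts. The part of cell composition in the results was not tested, and in bulk chromatin fewer cells that carry the mark and less of the mark per cell cannot be told apart.

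All 24 member regions carried less H3K27ac with inhibitor, as did 99.7% of all regions. Of all 22399 regions, 20101 were called with vehicle alone, as were 21 of the 24. Regions were thus mostly selected on the vehicle library, so a lower inhibitor signal is in part built in. Vehicle signals of the 24 regions ran from 10.2 to 33.1 with a median of 14.7, and inhibitor signals from 2.63 to 8.08 with a median of 4.19. The median difference was -1.72, against -1.61 for all regions, and 15 of the 24 lay below the median of all regions. Of the 24 regions, 23 were at least 2-fold lower, where 93.4% of all regions were, so this count is near the background. At least 4-fold lower were 7 of the 24, against 15.5% of all regions. The latter count was 10 with no pseudocount, 8 with peak signal and 0 with a pseudocount of 5, and the shares of all regions under these settings are not given here. It was 3 of the 13 regions assigned to no other gene. All 24 had an interval called with vehicle, as did 99.6% of all regions, and 3 were still called with inhibitor, against 10.3% of all regions. Those 3 are the promoter regions of Ifih1, Mx2 and Isg15.

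**Figure D2:**
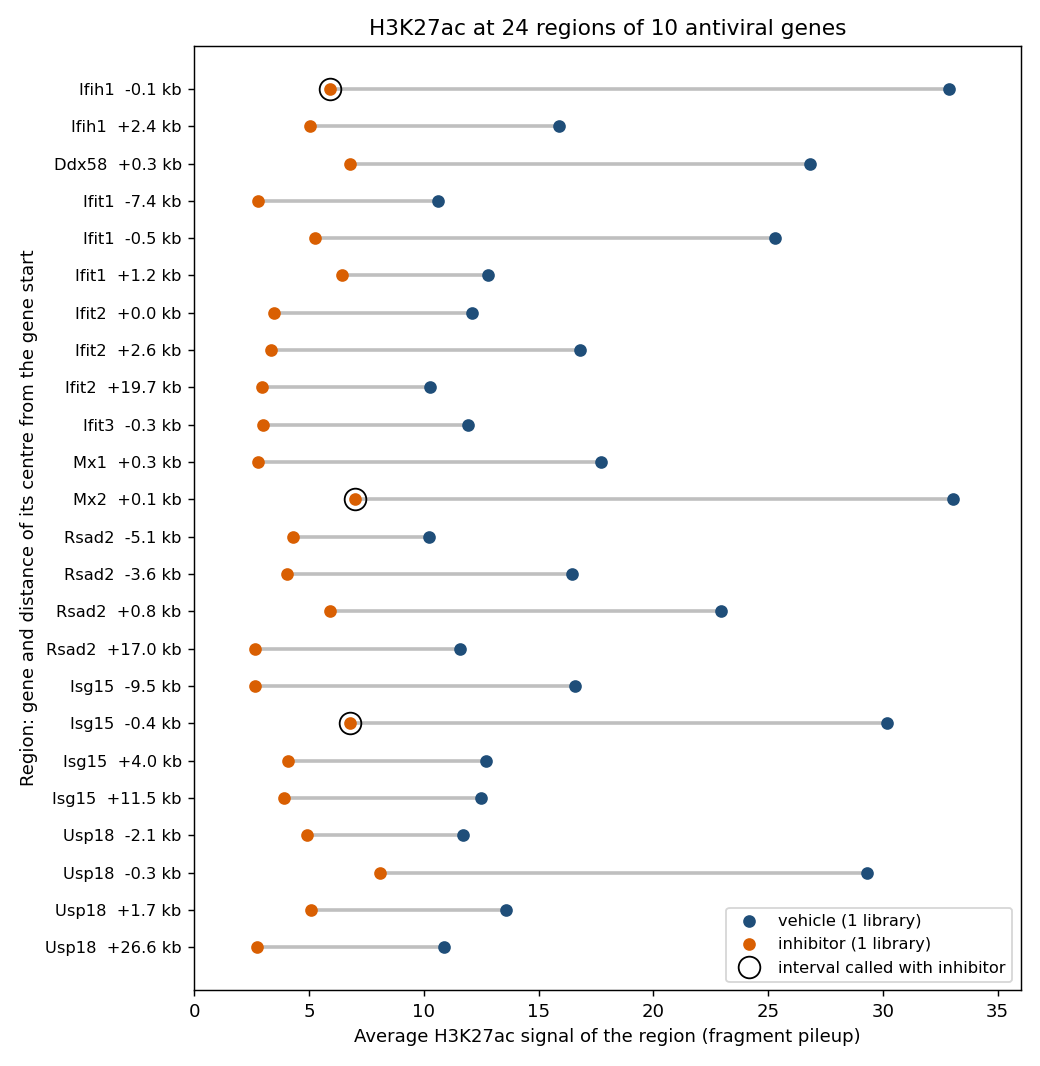
Average H3K27ac signal (fragment pileup, horizontal axis) at each of the 24 regions, named by gene and by the distance of the region's centre from the gene start. Blue points are the vehicle library, orange points the inhibitor library, and circles mark the 3 regions called with inhibitor. The region at Ifit3, which is also assigned to Ifit2, is drawn once.

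Both RNA sensors had their strongest region at the gene start. Ifih1 encodes MDA5, the sensor of long double-stranded RNA. Its promoter region (chr2:62644745-62647876), centred 55 bp upstream of the start, had 32.9 with vehicle against 5.89 with inhibitor, a 5.58-fold lower value and a difference of -2.30. Only 3.06% of all regions had a lower difference. The peaks of this region were 103 and 18, the highest vehicle peak among the 24 regions. The second Ifih1 region (chr2:62643231-62644486), 2397 bp inside the gene, had 15.9 and 5.03 (-1.49). With inhibitor the 2 regions of Ifih1 had similar levels, whereas with vehicle the promoter region was the stronger by far. Ddx58 encodes RIG-I, which recognises short RNA with a triphosphate end. It had a single region (chr4:40238380-40240674) over its start, with signals of 26.8 and 6.80, a 3.94-fold lower value and a difference of -1.83. That difference was smaller in size than that of Ifih1 and lay closer to the typical region, with 28.1% of regions lower. No interval was called at Ddx58 with inhibitor, although its inhibitor signal was higher than that of the Ifih1 promoter region, which was called.

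The Ifit genes encode tetratricopeptide proteins that bind foreign RNA and block its translation, and they lie in a cluster on chromosome 19. The strongest region at Ifit1 (chr19:34639199-34641586) had a signal of 25.3 in the vehicle library and 5.27 in the inhibitor library (4.80-fold, -2.07). It covers the Ifit1 window printed above and is shared with 2010002M12Rik, the current Ifit1bl2. The starts of these 2 genes are so close that their windows share 245 bases, read on opposite strands, and the signal cannot be divided between them. Next to it, a region 1204 bp inside Ifit1 (chr19:34641660-34642526) had 12.8 and 6.42, a difference of -0.89. This was the member region that missed 2-fold, and 96.2% of all regions had a lower difference. With vehicle this region was stronger than 33.7% of all regions, and with inhibitor it was stronger than 85.1%. The remaining Ifit1 region, 7372 bp upstream, had 10.6 and 2.79 (-1.62).

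Ifit2 had 4 regions, and its strongest was not the one at its start. The region over the start (chr19:34550167-34551244) had 12.1 with vehicle and 3.47 with inhibitor (-1.55), close to the typical region. The strongest region (chr19:34552767-34553827), 2603 bp into the gene, had 16.8 and 3.33, a 5.04-fold lower value and a difference of -2.04. Another region, 19742 bp into the gene, had 10.3 and 2.95 (-1.51). The last region assigned to Ifit2 lies 32536 bp from its start, and it is the promoter region of Ifit3. That region (chr19:34582870-34583590), centred 299 bp upstream of the Ifit3 start, had 11.9 and 3.00 (3.97-fold, -1.69), and it was the only region of Ifit3. Ifit3 thus had the lowest vehicle signal of the 10 genes at the strongest region. Its promoter window shares an exact stretch of 169 bases with that of Ifit3b, longer than the 150 bp reads. How reads with several matches were placed is not given in the sources used here, so the Ifit3 signal is uncertain. The region assigned to Ifit3b, listed under the older symbol I830012O16Rik, had 12.8 and 4.13 (-1.42).

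Mx1 and Mx2 encode dynamin-like GTPases that trap viral nucleoproteins. RefSeq lists both as transcribed pseudogenes in the C57BL/6J assembly, since many inbred strains carry damaged copies, and the state of these genes in SCID.beige mice is not given in the sources used here. Each had a single region, over its start. At Mx1 (chr16:97461100-97464052) the vehicle value was 17.7 and the inhibitor value 2.79, a 6.35-fold lower value and, at -2.30, the lowest difference of the 24 regions. The vehicle signal of Mx1 exceeded that of 66.9% of all regions, but its inhibitor signal exceeded that of 7.72%. At Mx2 (chr16:97534187-97538122) these values were 33.1 and 7.01 (4.72-fold, -2.09), the strongest vehicle region of the 10 genes. Mx2 kept an interval with inhibitor and Mx1 did not. The Mx1 region is also assigned to Fam3b, a cytokine-like gene whose start lies 42360 bp away.

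Rsad2 encodes viperin, a radical SAM enzyme that makes a chain-terminating nucleotide from CTP. Its promoter region (chr12:26454486-26456852) had 22.9 in vehicle and 5.92 in inhibitor chromatin (3.87-fold, -1.79). A region 3598 bp upstream (chr12:26458873-26461227) had 16.4 and 4.04, the same difference of -1.79, and a region 17042 bp downstream had 11.6 and 2.63, also -1.79. The remaining one, a short region of 588 bp lying 5143 bp upstream, had 10.2 and 4.29, a difference of -1.08. Both upstream regions are also assigned to Cmpk2, the neighbour on the other strand, which encodes a nucleoside monophosphate kinase of mitochondria. The promoter region of Cmpk2 itself was stronger than any of Rsad2, with 36.9 and 8.36 (-2.02), and it was called with inhibitor.

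Isg15 encodes a ubiquitin-like protein that is attached to other proteins, and Usp18 the protease that removes it. Isg15 lies in the broadest region of the set, 6955 bp (chr4:156197711-156204666), which holds 4 intervals and also reaches the promoters of Agrn and AW011738. This region had 30.2 in the vehicle library and 6.77 in the inhibitor library (4.46-fold, -2.004), and it was called with inhibitor. A region 9497 bp upstream of the Isg15 start (chr4:156209707-156210924), which the table also assigns to AW011738 and 2310042D19Rik, had a lower difference, -2.27, from 16.6 to 2.66. It exceeded 61.8% of all regions with vehicle and 6.17% with inhibitor. On the other side, 2 regions assigned also to Agrn, at 3973 and 11478 bp, had 12.7 and 4.10 (-1.43) and 12.5 and 3.91 (-1.46).

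The Usp18 promoter region (chr6:121244778-121246489) had a vehicle signal of 29.3 and an inhibitor signal of 8.08, the highest inhibitor signal of the 24 regions. Its difference of -1.74 (3.63-fold) was smaller in size than those of the other members at their strongest regions, except Ifit3. It was not called with inhibitor, although 95.9% of all regions had a lower inhibitor signal. The regions on either side of it, 2142 bp upstream and 1679 bp into the gene, had 11.7 and 4.91 (-1.10, but -0.39 by peak signal) and 13.6 and 5.06 (-1.27). The last region, 26596 bp from the start, had 10.9 and 2.71 (-1.68). Usp18 thus had the smallest mean difference over its regions, -1.45, and Mx1 the largest, -2.30.

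**Figure D3:**
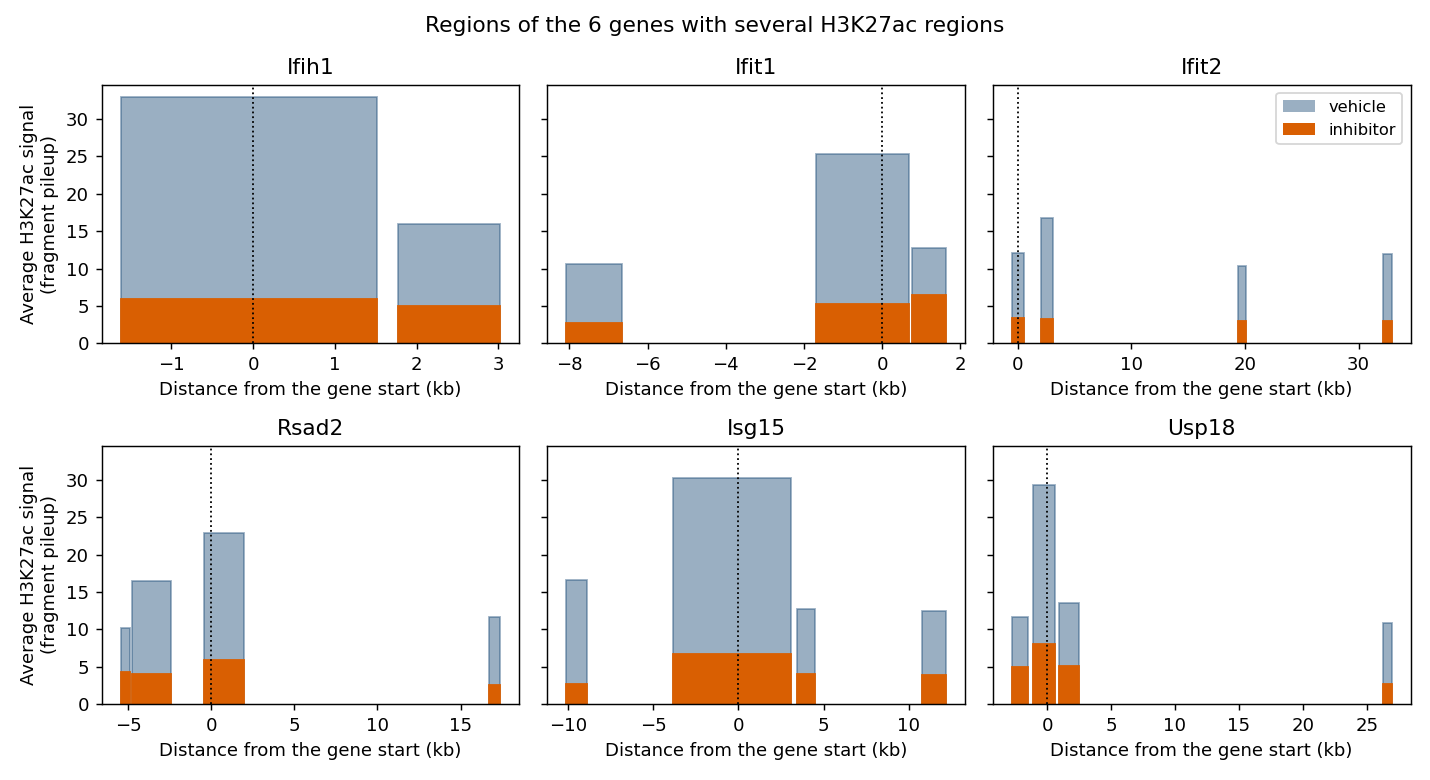
Average H3K27ac signal (vertical axis, fragment pileup) against distance from the gene start in kb for the 6 genes with several regions, with each bar as wide as its region. Pale blue is the vehicle library and orange the inhibitor library. In Ifih1, Ifit1, Rsad2, Isg15 and Usp18 the strongest vehicle region lies at the start, and in Ifit2 it lies downstream.

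Within a gene the differences were not uniform. In the 6 genes with several regions, the strongest region had the lowest difference in 4 (Ifih1, Ifit1, Ifit2 and Usp18). At Isg15 another region was lower, and at Rsad2 the strongest region and 2 others were level. The span between the regions of a gene was largest at Ifit1, 1.18 on the log2 scale, and smallest at Ifit2, 0.52. The 10 strongest regions had a median difference of -2.02 and the other 14 regions -1.50, with median vehicle signals of 26.1 and 12.3. Strong regions had larger decreases over the whole table too. Vehicle signal also enters the difference, and the pseudocount of 1 shrinks differences at weak regions, so part of this trend is built in. Among all regions in the strongest of 4 equal classes of vehicle signal the median was -1.93, and the 7 member regions of that class had -2.004. In the next class, 5 member regions had -2.04 against -1.64 for all, and they include Mx1 and the upstream region of Isg15. In the 2 weaker classes the values were -1.43 (5 member regions) against -1.44, and -1.62 (7 member regions) against -1.33 in the weakest. The members thus stood below all regions in 3 of the 4 classes, without a test. From the strongest class to the weakest, 4 of 7, 3 of 5, 0 of 5 and 0 of 7 member regions were at least 4-fold lower. Of all regions in these classes, 40.3%, 11.3%, 5.75% and 4.66% were.

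**Figure D4:**
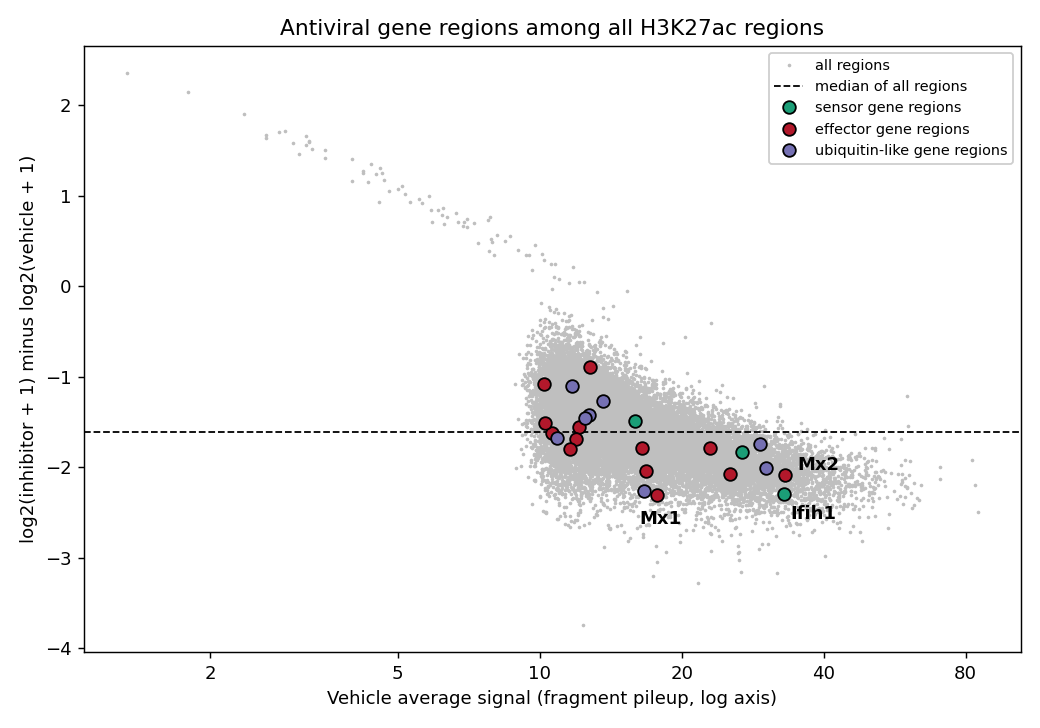
Difference between the libraries (vertical axis, log2 scale) against vehicle signal (horizontal log axis) for all 22399 regions (grey) and the 24 member regions (green sensors, red effectors, violet Isg15 and Usp18). The dashed line is the median of all regions, -1.61, and 15 of the 24 member regions lie below it, with Mx1 and Ifih1 lowest.

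Most member regions were promoter regions without a CpG island, by the counts in the deposited table, which takes regions several kb from a start as promoter regions. Of the 24, 20 (83.3%) overlapped a promoter and 3 (12.5%) a CpG island, against 51.9% and 38.3% of all regions. The 3 with a CpG island were the promoter region of Usp18 and, of the regions assigned to both Isg15 and Agrn, the broad one at the Isg15 start and the one at 3973 bp. The 17 member promoter regions without a CpG island had a median vehicle signal of 16.4 and a median difference of -1.79, and all 3631 such regions of the table had 13.4 and -1.57. Of the 17, 6 were at least 4-fold lower, as were 11.3% of the 3631. The 4 member regions away from promoters were weak, with vehicle signals from 10.3 to 12.5, and none of them reached a difference of -2. Their plain ratios of signals were 4.40 at Rsad2, 4.003 at Usp18, 3.48 at Ifit2 and 3.19 at Isg15. The median length of member regions was 1334 bp, close to the 1420 bp of all regions.

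By gene, the strongest region was at least 2-fold lower in all 10 genes, against 96.1% of all genes, and at least 4-fold lower in 6 (Ifih1, Ifit1, Ifit2, Mx1, Mx2 and Isg15), against 26.2%. With a pseudocount of 5 that count was 0, when the regions of a gene were averaged it was 2 (Mx1 and Mx2), and with peak signal it was 7, without Isg15 (-1.95) and with Ifit3 (-2.22) and Usp18 (-2.02). The shares of all genes under these settings are not given here. The 26.2% is not matched for vehicle signal, and in the strongest class of all regions 40.3% were at least 4-fold lower. In 3 genes the strongest region was called with inhibitor, against 23.2% of all genes. The order of the differences was Mx1, Ifih1, Mx2, Ifit1, Ifit2, Isg15, Ddx58, Rsad2, Usp18 and Ifit3, from -2.30 to -1.69. The median over the 10 genes was -2.02, against -1.78 over all genes, and Usp18 and Ifit3 were the 2 genes less low than that. With no replicates, neighbours in this order cannot be distinguished.

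Other genes of the pathway were described from 4 lists with 63 genes, of which 62 had a region and each was at least 2-fold lower (96.1% of all genes were). At least 4-fold lower were 26.2% of all genes, a share not matched for vehicle signal. In the list of receptor and signalling genes, with a median of -1.91 over 11 genes, 3 were, which is near that share. This list ran from the kinase gene Jak1 (-2.24) to Irf3, an interferon-inducing factor that acts ahead of the receptor (13.1 and 5.06, -1.21), with Irf1 at the median. The transcription factor genes Stat2 and Irf9 had -1.96 and -1.78, and the receptor genes Ifnar1 and Ifnar2 had -1.89 and -1.80. The regions behind the Stat2 and Ifnar1 values lie far from the gene starts, at 32990 and 36384 bp. Irf7, which amplifies interferon production, had -1.96. Among 14 other sensors and adaptors the median was -1.88, and 3 were at least 4-fold lower, also near the share of all genes. The lowest of them was the adaptor Traf3 (32.5 and 4.92, -2.50) and the highest the endosomal receptor Tlr7 (10.5 and 4.72, -1.01). Tmem173, which encodes STING, lay nearest the median (-1.90). Dhx58, the third RIG-I-like helicase, had 30.7 and 7.19 (-1.95), between the values of Ifih1 and Ddx58. Mavs, the adaptor that both sensors use, had -1.75, and Trim25, a ubiquitin ligase that activates RIG-I, had 46.7 and 9.39 (-2.20).

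The 3 genes whose products attach ISG15 were Ube2l6, the conjugating enzyme (28.2 and 4.90, -2.31), the ligase Herc6 (-1.97) and the activating enzyme Uba7 (22.5 and 5.68, -1.81). Like Isg15 itself they were below the median of all genes, -1.78, though Uba7 lay close to it. The list of 34 other antiviral effectors had a median of -1.94, and 16 were at least 4-fold lower, against 26.2% of all genes, a share not matched for vehicle signal. The 34 genes take 31 regions and the 16 take 15, since Parp9 and Dtx3l, Ifitm1 and Ifitm2, and the relatives I830012O16Rik and Gm14446 share a region. The list ran from Oas1a, which makes the activator of RNase L, at -2.61 to Oasl1 at -1.06, with Oas1g nearest the median. The Oasl1 value is of a region 19147 bp from its start. No region of the table was assigned to Ifi44. Earlier results of these data were known when the lists were chosen.

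**Figure D5:**
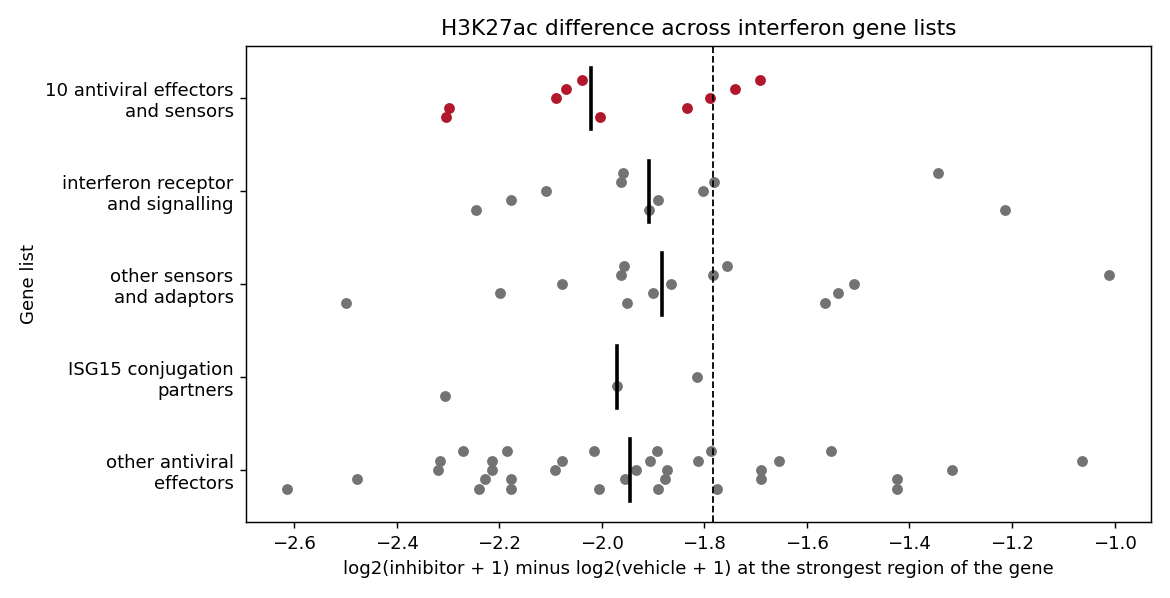
Difference at the strongest region of each gene (horizontal axis, log2 scale) for the 10 antiviral genes (red) and 4 lists of other interferon pathway genes (grey). Short black lines are list medians, and the dashed line is the median of all genes, -1.78. All points are below -1, and the median of each list lies below that of all genes.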

How the data were processed

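The deposited table lists 22399 regions with, for each of 2 libraries, the average and peak signal and a flag for a called interval. The column headers name only an average and a peak value, and the signal is taken here to be fragment pileup. The flags and the numbers of intervals, CpG islands and promoters were used as the authors gave them. The submitters' processing notes name BWA, SICER, hg19 and dm3 without versions or settings. Per the labels' protocols, chromatin was fixed with 1% formaldehyde, fly chromatin was added as a spike-in, and paired reads of 150 bp came from fragments of about 380 bp. The coordinates are of the mouse. Among 27781 combinations of region and gene, 86.9% put the start of the gene no more than 1 kb from that in GRCm38, as did all 25 of the member genes, and GRCm38 is therefore given as their build. No average lies between 0 and 1, a property of a mean that leaves out empty stretches, which would overstate weak signal.

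A difference is log2(inhibitor + 1) minus log2(vehicle + 1) on average signals. A pseudocount of 1 shrinks differences at weak regions. A gene took its region with the highest mean signal. The sequencing depth is unknown, and no interval is given. The input has no column in the table. The calculations used Python 3.11.15 and pandas 2.3.3 and were tested on simulated data. Alternatives changed the signal, pseudocount, centring, filter, and choice of regions. With no replicates, a value was counted as moved when it changed by over 1.5-fold. All members, genes sharing their regions, and the ends and centre of each list were named by rule, with pathway partners. The members and lists were chosen with earlier results of these data known. Of the list genes, 1 is not reported here by name, and the list medians and counts include it.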

Additional observations from a re-analysis of the deposited data

How the results depend on the processing

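Of 140 recomputed values 26 moved by over 1.5-fold and none changed sign. Recentring shifts every difference by more than this limit, so those moves were fixed in advance. Counts were compared as plain numbers, so a filter that keeps fewer regions can move a count although the share does not fall. All 10 genes stayed below 0 at the region chosen for them under each alternative run, and their range was -2.70 to -1.82 with peak signal. Before recentring, 99.7% of all regions were below 0 too. Recentring used the median of all regions, -1.61, and not that of all genes at their strongest region, -1.78. Usp18 (-1.74) and Ifit3 (-1.69) were less low than the latter. Recentring on the median of all regions moved every median and count: the member regions to -0.11, the 10 strongest regions to -0.41, and the lists of signalling genes to -0.30, other sensors to -0.28, ISG15 partners to -0.36 and other effectors to -0.34, with 0 member regions 2-fold or 4-fold lower. With a pseudocount of 5 the median of the member regions was -1.10, and 0 were 4-fold lower. Regions assigned to members alone numbered 13, of which 13 were 2-fold and 3 were 4-fold lower. Of the 12 regions at or above the median signal, 12 were 2-fold lower. That filter leaves no region of Ifit3. The shares of all regions under these alternatives are not given here. No paired analysis was possible because there is 1 library per treatment, and no replicate could be left out. With peak signal the region 2142 bp upstream of Usp18 had 16 with vehicle and 12 with inhibitor (-0.39).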

Other observations

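Over the whole table, genes with and without the IRF-type promoter letters had similar median differences. The 342 genes with a region and a RefSeq promoter window holding the IRF-type letters on either strand had a median difference of -1.83 at their strongest region (quartiles -2.08 and -1.55), and the 9183 genes whose windows lack the letters had -1.79 (quartiles -2.01 and -1.51). Their median signals were 22.2 and 21.3 with vehicle and 5.69 and 5.65 with inhibitor. Without the member genes the first group had -1.83 over 336 genes. These values are descriptions of 2 libraries, and no test was run.

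Between the Ifit genes on chromosome 19 the table holds 3 regions assigned to Ifit relatives and to no member gene. They had signals of 12.8 with vehicle and 4.13 with inhibitor, 15.4 and 4.16, and 14.5 and 3.40, with differences of -1.42, -1.67 and -1.81. At the neighbour of Rsad2, a region upstream of the promoter region of Cmpk2 (chr12:26466482-26467389) had 10.04 with vehicle and 1.19 with inhibitor, an 8.43-fold lower value (-2.33). It was weak with vehicle, and its inhibitor signal was lower than that of any member region. No average lies between 0 and 1, so this inhibitor value is near the floor and the ratio is uncertain.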
